A study of Drosophila melanogaster with 4 samples.

Results

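The glutathione transferase (Gst) genes were described as a family, by class and by tandem cluster, in anti-GFP chromatin immunoprecipitation and sequencing (ChIP-seq) peaks of the homeodomain factor exex. Members were chosen by symbol: every protein-coding gene of the main chromosome arms whose symbol begins with Gst, which gave 35 of 13945 genes. They comprised 11 of class D (Delta), 14 of class E (Epsilon), 3 of class O (Omega), 1 of class S (Sigma), 4 of class T (Theta) and 2 of class Z (Zeta). The family was proposed for description because peak summits were seen in its windows, each window being the gene body with 5000 bp on either side. All counts of summits near Gst genes below are therefore descriptions, with no test.

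All 4 libraries formed 1 group: chromatin from whole Drosophila melanogaster embryos, 6 to 24 h old, of a transgenic line that stably makes exex joined at its C-terminal end to GFP. The 4 libraries are labelled as biological replicates, the sources used here give neither the insertion site nor the copy number of the transgene, and the control experiment named in the labels was not used here. Because whole embryos were used, a peak in few cells and a weak peak in many cells cannot be told apart, and a peak carries no information on the transcription of a gene. Each replicate list held 30000 peaks, and the reproducible list made from them by the irreproducible discovery rate (IDR) filter held 7909. Read depth is unknown from peak lists. In what follows, a rank is a peak's place by the authors' signal value within its own list, with 1 the strongest, and the highest peaks of a replicate are its 7909 strongest. In replicate 4 only 6947 peaks had a q-value under 0.01, so some of its highest peaks do not pass that threshold. Replicates 1 to 3 had 12935, 11893 and 13846 such peaks, more than the 7909 used.

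Glutathione transferases join the tripeptide glutathione to reactive and foreign compounds, and in insects the Delta and Epsilon classes are the expanded ones, known for detoxification and insecticide resistance. In flies the Delta and Epsilon genes largely sit side by side as short, tandemly duplicated genes, while the Omega, Sigma, Theta and Zeta genes are fewer. The factor exex is the fly counterpart of vertebrate HB9 (MNX1) and is known for its role in motor neuron identity.

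The sequences under the 5 strongest IDR summits nearest to a Gst transcription start site (TSS) on arms 3L, 3R and X are shown, stronger ones on another arm being described by their values only, because each carries a reproducible peak of the family, and 3 of the 5 lie in the gaps of the Delta cluster. Each run has 101 bases centred on the summit, 5′ to 3′ on the strand of the gene, with matches to GATAA on either strand in capitals. They were read from the RefSeq Release 6 genome of the fly, and none overlaps an annotated exon. The intervals are chr3L:8519272-8519372 for GstO3, chr3R:12379390-12379490 for GstD8, chr3R:12365971-12366071 for GstD10, chr3R:12375578-12375678 for GstD5 and chr3R:9459863-9459963 for GstZ2.
GstO3: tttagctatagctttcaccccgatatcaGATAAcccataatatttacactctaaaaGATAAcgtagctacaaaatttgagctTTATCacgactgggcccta
GstD8: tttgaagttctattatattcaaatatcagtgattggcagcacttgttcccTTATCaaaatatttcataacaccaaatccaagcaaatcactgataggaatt
GstD10: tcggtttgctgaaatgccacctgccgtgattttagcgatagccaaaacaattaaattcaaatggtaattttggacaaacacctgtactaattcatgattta
GstD5: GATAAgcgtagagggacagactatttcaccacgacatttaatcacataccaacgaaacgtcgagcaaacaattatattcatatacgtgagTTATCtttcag
GstZ2: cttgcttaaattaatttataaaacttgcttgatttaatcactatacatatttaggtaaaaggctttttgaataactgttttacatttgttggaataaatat
GATAA was found 3 times under the GstO3 summit, 2 times under that of GstD5 and 1 time under that of GstD8, while the GstD10 and GstZ2 stretches held none. TAATTA, the core site of many homeodomain proteins, was found in none of the 5 stretches. The shares of words given further below use 201 bp around each summit. In that wider window the GstO3 summit had TAATTA 1 time and the GstD10 summit had GATAA 1 time. A match of letters is a description and not a binding site.

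An IDR summit lay in the window of 34 of the 35 Gst genes, and 55.4% of all protein-coding genes had one. Among all genes with bodies of 725 to 6256 bp, the range of the Gst bodies, the share was 55.3%. Within 1000 bp of an own TSS, 24 of the 35 Gst genes had an IDR summit, and 28.2% of all genes did. Counting only IDR peaks that the highest peaks of 3 replicates all overlapped, 21 Gst genes had one near a TSS without replicate 4, and 15, 15 and 14 did without replicate 1, 2 or 3, where replicate 4 had to hold the peak. For all genes these shares were 20.2% without replicate 4 and 18.9 to 19.8% without another. Every class was represented: summits lay in the windows of 11 of 11 class D, 14 of 14 class E, 3 of 3 class O, 1 of 1 class S, 3 of 4 class T and 2 of 2 class Z genes. Only GstT3 had none in the IDR list, its nearest IDR summit lying 13231 bp from its TSS.

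The replicate lists gave similar numbers of genes with a window summit. Among the highest peaks, the count of Gst genes was 34 in replicate 1, where 55.0% of all genes had a summit, and 34 in replicate 2, where 53.2% had one. It was 34 in replicate 3, against 55.3% of all genes, and 35 in replicate 4, against 60.3%. Close to the start sites replicate 4 stood lower. Within 1000 bp of a TSS the highest peaks reached 25 Gst genes in replicate 1 against 27.5% of all genes, 23 in replicate 2 against 26.0%, 23 in replicate 3 against 28.0%, and 18 in replicate 4 against 32.2%. Replicate 4 thus had the fewest Gst start sites while it had the highest share of all start sites. By class, the start sites reached in replicates 1 to 4 were 8, 6, 8 and 5 of the 11 in class D and 10, 10, 9 and 7 of the 14 in class E. In class T they were 3, 2, 2 and 3 of 4, in class O 2, 2, 2 and 1 of 3, in class Z 1, 2, 1 and 1 of 2, and the 1 class S gene was reached in all 4.

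**Figure D1:**
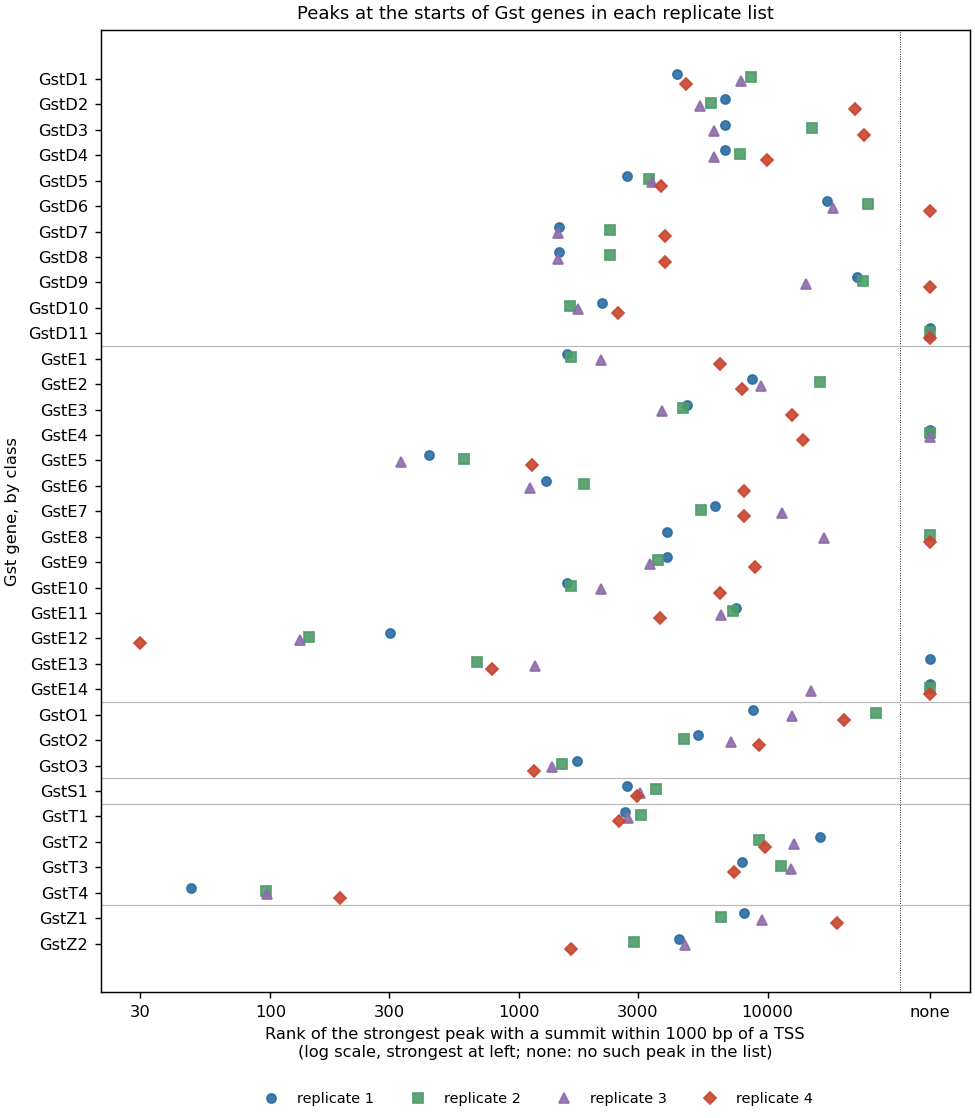
For each of the 35 Gst genes, grouped by class, the rank (log axis, strongest at left) of the strongest peak with a summit within 1000 bp of a TSS is plotted for the 4 replicate lists of 30000 peaks, and genes with no such peak are placed at none. GstE12 and GstT4 stand farthest to the left, GstD11 has no peak in any list, and replicate 4 lies to the right of the others at many D and E genes, such as GstD2, GstE3, GstE6 and GstE10.

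Because the genes crowd together, the 34 genes shared a smaller set of peaks. The windows merged into 12 separate stretches of 186044 bp in all, and they held 49 distinct IDR summits in 39 called regions. That is 2.63 summits per 10 kb in the Gst windows and 0.591 per 10 kb over the main arms. The windows lie around genes while the arms are counted whole, so these values do not compare like stretches. The density in windows of other genes was not computed, so the gap cannot be read as a trait of the family. A single summit was often counted for many neighbours: the one upstream of GstE5 lies in the windows of 8 Epsilon genes, from GstE2 to GstE9. Assigning each summit to the gene with the nearest TSS left 31 summits for the family and 18 summits for other genes. The 31 were spread over 22 of the 35 Gst genes, and 27.7% of all genes had a summit by this rule. The Gst genes without a nearest summit were GstD3, GstD6, GstD7, GstD9, GstD11, GstE2, GstE4, GstE8, GstE14, GstO1, GstT2, GstT3 and GstZ1. None of the 49 summits lay in coding sequence.

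The Delta cluster on chromosome arm 3R (dm6, chr3R:12364776-12385624) spans 20849 bp and holds all 11 Delta genes and CG10035. It held 8 IDR summits in 7 called regions, 3.84 per 10 kb, spaced 202 to 3812 bp apart with a median of 2328 bp. Of these, 7 were intergenic and 7 lay upstream of the nearest Gst TSS, although intergenic sequence makes up 36.1% of the span. No summit fell within the body of any of the 11 Delta genes, 7 of which have a single exon. Over all protein-coding genes, 18.1% had an IDR summit in the body, so with 11 short genes this absence cannot be read as a Delta trait.

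The strongest Delta peak lay 568 bp upstream of GstD8 in the gap that separates it from GstD7, with IDR rank 1702. It ranked 1454, 2331, 1432 and 3863 in replicates 1 to 4, and a second summit of the same called region lay 366 bp upstream of the GstD8 TSS with IDR rank 7039. The summit 286 bp upstream of GstD10 had IDR rank 1927 and replicate ranks of 2147, 1605, 1729 and 2508. Thus the best Delta peaks stood in the upper part of all lists, with replicate 4 lowest in both. The summit 105 bp upstream of GstD5 had IDR rank 3027 and replicate ranks of 2723, 3339, 3420 and 3724, so its 4 ranks were close together.

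GstD1, the Delta enzyme best known for its action on DDT and as an oxidative stress reporter gene, had a weak peak. Its summit lay 126 bp upstream with IDR rank 6463, and the replicate ranks were 4302, 8607, 7812 and 4678. GC content around that summit was 54.2%, the highest of the summits in the Delta and Epsilon clusters. GstD4 had a summit 38 bp upstream with IDR rank 6102 and replicate ranks of 6760, 7727, 6057 and 9965. The summit 237 bp upstream of GstD2 had IDR rank 5707, with ranks of 6742, 5933 and 5351 in replicates 1 to 3 and 22480 in replicate 4. A summit 899 bp downstream of the GstD8 TSS, in an untranslated exon of CG10035, had IDR rank 4367, with ranks of 3629, 4482 and 4066 in replicates 1 to 3 and 23982 in replicate 4. These last peaks were listed in all 4 replicates but stood far down the list of replicate 4.

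Several Delta genes were reached only through neighbours. The GstD8 region lay 940 bp from the GstD7 TSS, and the GstD4 summit lay 994 bp from that of GstD3. GstD9, GstD6 and GstD11 had no IDR summit within 1000 bp, the nearest lying 1543, 1500 and 2429 bp from their start sites. No replicate list held a summit within 1000 bp of the GstD11 TSS.

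The Epsilon cluster on arm 2R (chr2R:18396638-18409835) spans 13198 bp and holds GstE1 to GstE10, with imd reaching into its end. It held 8 IDR summits in 8 called regions, 6.06 per 10 kb, spaced 608 to 2584 bp apart with a median of 1264 bp. As in the Delta cluster, 7 of the 8 lay upstream of the nearest Gst TSS and none lay in coding sequence. Intergenic sequence, 30.1% of the span, held 5 of them.

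**Figure D2:**
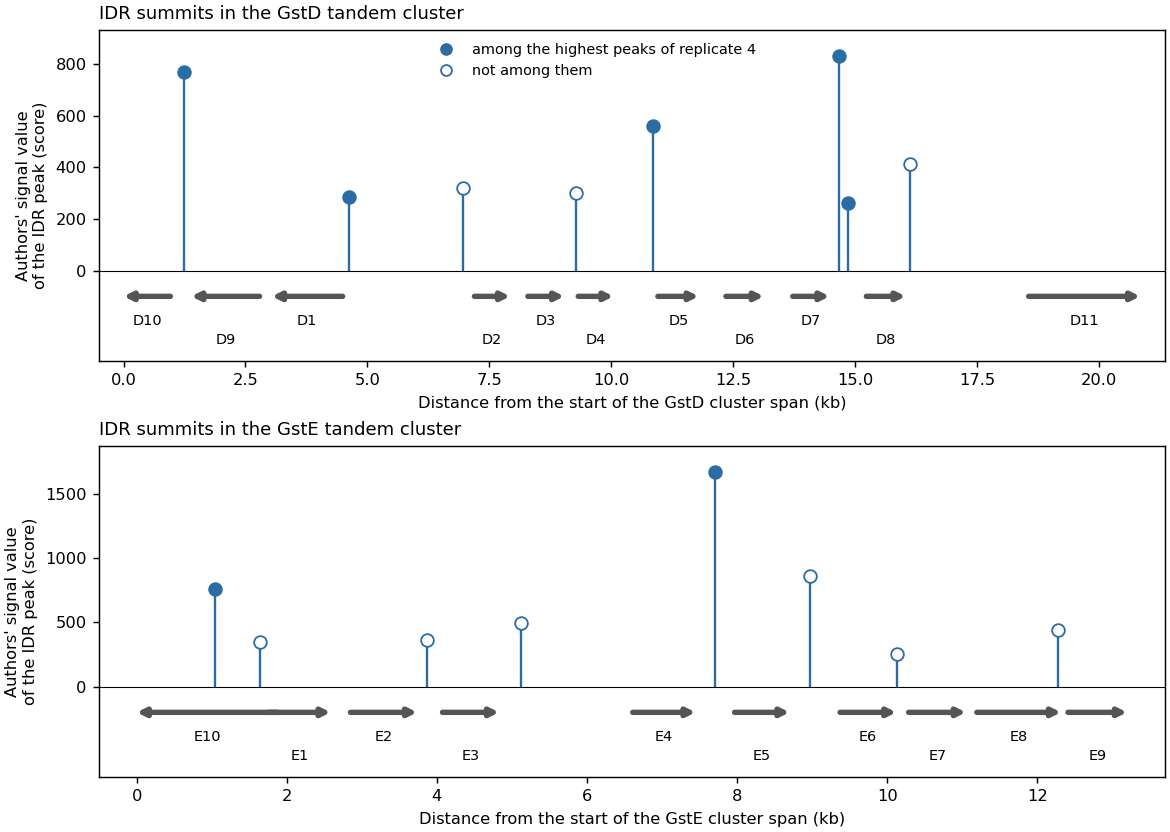
Position along the Delta cluster (top) and the Epsilon cluster (bottom) in kb from the start of each span, with Gst genes as arrows in the direction of transcription and IDR summits as stems whose height is the authors' signal value of the peak (a score). Filled points are peaks overlapped by the 7909 highest peaks of replicate 4, which holds for 5 of 8 in the Delta cluster and 2 of 8 in the Epsilon cluster, and the summits stand mostly in the gaps before the next gene.

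The strongest Epsilon cluster peak lay 264 bp upstream of GstE5, with IDR rank 459 and signal 1672. It ranked 433, 601, 334 and 1126 in replicates 1 to 4, so replicate 4 was lowest there too, though still high in its list. GstE10 had a summit 153 bp upstream of one of its start sites, with IDR rank 1979, ranks of 1557, 1614 and 2146 in replicates 1 to 3 and 6459 in replicate 4. The divergent neighbour GstE1 had a summit 106 bp upstream, with IDR rank 5348, ranks of 4218, 5386 and 5224 in replicates 1 to 3 and 19250 in replicate 4. In both, replicates 1 to 3 lay close together and replicate 4 lay apart.

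The same held farther along the cluster. GstE6 had a summit 406 bp upstream with IDR rank 1613, and its ranks were 1278, 1824 and 1106 in replicates 1 to 3 and 14709 in replicate 4. GstE9 had a summit 131 bp upstream, inside an untranslated exon of GstE8, with IDR rank 4060, ranks of 3919, 3632 and 3376 in replicates 1 to 3 and 8884 in replicate 4. GstE3 had a pair of summits, and replicate 4 listed no peak overlapping either. The GstE3 summit 206 bp upstream had IDR rank 5064 and ranks of 4734, 4574 and 3759 in replicates 1 to 3, and the summit 1044 bp downstream of the TSS, past the end of the gene, had IDR rank 3581 and ranks of 3789, 2775 and 2879. The nearest summits of replicate 4 lay 363 and 444 bp away from these, and the strongest peak it held within 1000 bp of the GstE3 TSS ranked 12547.

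GstE7 was the exception in the Epsilon cluster. Its summit 150 bp upstream had IDR rank 7173 and ranks of 6116, 5403, 11450 and 8051, so replicate 3 was the lowest there. GstE2, GstE4 and GstE8 had no IDR summit within 1000 bp, the nearest lying 1021, 1093 and 1060 bp from their start sites. The single replicate peak within 1000 bp of the GstE4 TSS ranked 13918 and came from replicate 4.

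Seen over both clusters, the peaks of replicate 4 stood apart from those of the other replicates. The highest peaks of replicates 1 to 4 overlapped 16, 15, 15 and 7 of the 16 cluster peaks. Over all IDR peaks the same lists overlapped 88.8% in replicate 1, 88.1% in replicate 2, 90.1% in replicate 3 and 80.1% in replicate 4, so the 43.8% of cluster peaks found in replicate 4 was below that list's general share. The Epsilon cluster accounted for most of this, with 2 of 8 peaks against 5 of 8 in the Delta cluster. The median rank of the 8 Epsilon cluster peaks was 3854, 3204 and 3128 in replicates 1 to 3 and 11796 in replicate 4, with an unlisted peak placed after the last of its list.

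The shift was also seen peak by peak. Replicate 4 gave the lowest rank of the 4 replicates for 14 of the 16 cluster summits and for 43.1% of all IDR summits. In a count chosen after its values were seen, the rank in replicate 4 was over 2 times the worst of the other 3 ranks, or the peak was unlisted, for 6 of 8 Epsilon and 2 of 8 Delta cluster summits, and this held for 13.8% of all IDR summits. The 15 summits nearest to a Gst TSS outside these clusters, in 12 called regions, showed it less. The highest peaks of replicates 1 to 4 overlapped 14, 15, 15 and 12 of them. Replicate 4 was lowest for 4, and over 2 times the worst other rank for 1. Summits that share a replicate peak were each counted. In the complete lists, where 98.2%, 97.7%, 98.8% and 97.1% of all IDR peaks were overlapped in replicates 1 to 4, 16, 16, 16 and 14 of the 16 cluster peaks were.

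Some properties of the lists and of the sequence moved with this. Replicate 4 had 6947 peaks at a q-value under 0.01, and replicates 1 to 3 had 12935, 11893 and 13846. Median GC content of the 201 bp around the summits was 34.1% in the 2 clusters and 31.3% in the Epsilon cluster, against 40.8% at the other Gst summits and 38.8% over all IDR summits. Among the IDR summits in the same rank range, 459 to 7173, that had GC content at or under the cluster median, replicate 4 overlapped 77.6% among its highest peaks, and it overlapped 82.6% of all summits in that range. The rank in replicate 4 was over 2 times the worst other rank, or the peak was unlisted, for 19.5% of that low-GC set. For all summits in the range it was 12.8%. The part of GC content, read depth, library quality or stage of the embryos in the shift was not tested. None of the 31-base words in the 201 bp around the 49 summits had another exact match on the main arms. Other sequence of the genome, inexact matches and the rest of each peak were not searched.

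**Figure D3:**
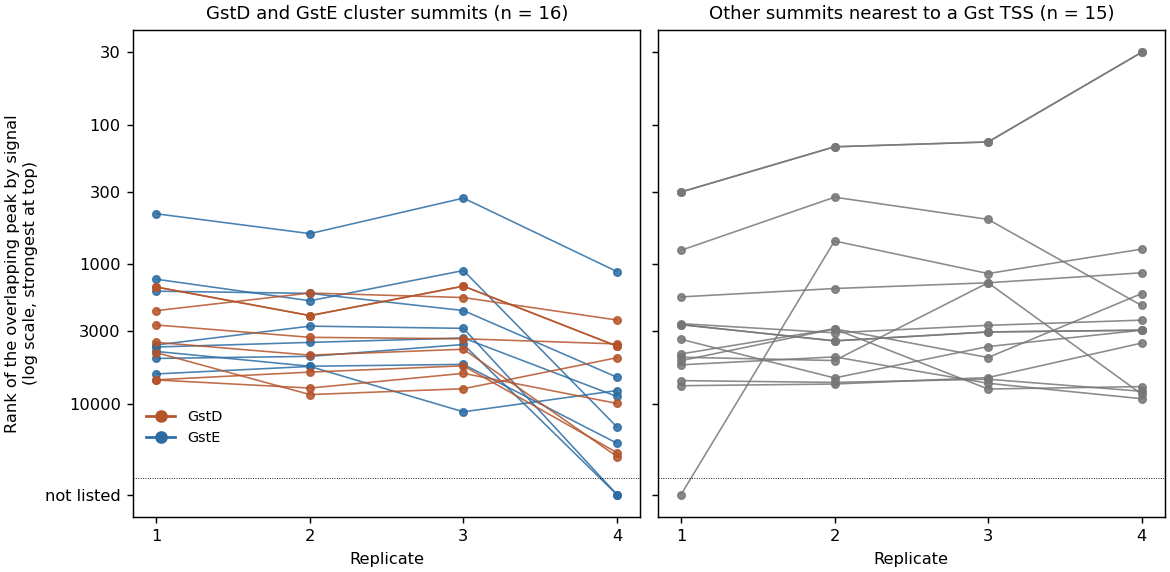
Rank (log axis, strongest at top) of the replicate peak overlapping each IDR summit, for the 16 summits of the Delta and Epsilon clusters (left) and the 15 other summits nearest to a Gst TSS (right), with 1 line per summit joining its values in the 4 replicates and unlisted peaks below the dotted line. At left most lines drop at replicate 4, and at right most do not, the 1 unlisted value there being GstE13 in replicate 1.

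Outside the tandem clusters, the strongest peak nearest to a Gst gene was at GstE12, an Epsilon gene that sits alone on arm 2R. The gene has 2 annotated start sites. The summit with IDR rank 124 and signal 2795 lay in an untranslated exon, 205 bp upstream of the inner start site, and a second summit with IDR rank 2173 lay 54 bp downstream of the outer one. The peak over both ranked 302, 143, 132 and 30 in replicates 1 to 4, so here replicate 4 was the strongest. GstE11 had a summit 356 bp downstream in an intron, with IDR rank 5656 and ranks of 7434, 7228, 6496 and 3673, and there too replicate 4 was the strongest.

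GstE13 had an IDR summit 67 bp downstream of its TSS with IDR rank 825 and ranks of 679, 1163 and 777 in replicates 2 to 4. No peak of replicate 1 overlapped it, and the nearest summit of that list lay 6853 bp away. Such an absence was rare among strong peaks: of the 825 strongest IDR peaks, 3 were overlapped by no peak of replicate 1, 2 by none of replicate 2, and 0 by none of replicate 3 or of replicate 4. GstE14, known as noppera-bo for its part in ecdysteroid synthesis, had no summit of its own. The 1 summit in its window lay 4706 bp away at the TSS of Qsox1, with IDR rank 5683.

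The Sigma gene GstS1, whose product conjugates the lipid peroxidation product 4-hydroxynonenal, had the most summits in its window, 9, of which 4 were nearest to its own TSS and lay in its introns. The gene has 3 annotated start sites. The strongest summit, with IDR rank 577, lay 1648 bp downstream of a start site inside the gene and ranked 792, 329, 475 and 1972 in replicates 1 to 4. The other 3 lay 116, 335 and 575 bp downstream of the outermost start site, with IDR ranks of 4774, 3178 and 4666. The peak over the summits at 116 and 335 bp ranked 2708, 3541, 3056 and 2968, and that at 575 bp ranked 3451, 6538, 3889 and 2968. The remaining 5 summits of the window were nearest to Sply, the sphingosine-1-phosphate lyase gene, and to CG46491.

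The Omega genes GstO1, GstO2 and GstO3 share 5982 bp of arm 3L with se, the gene for the related enzyme of red eye pigment synthesis. GstO3 had a summit in its intron 437 bp downstream of the TSS with IDR rank 1432 and ranks of 1711, 1490, 1355 and 1149. A weaker GstO3 summit 206 bp upstream, in an untranslated exon of CG6765, had IDR rank 6420 and ranks of 4640, 4902, 1355 and 8531. The 1355 of replicate 3 is the rank also given for the intronic summit, so it does not measure the weaker summit alone. The GstO2 summit 62 bp downstream had IDR rank 5306 and ranks of 5261, 4615, 7142 and 9215. The best rank of any summit counted for this class, 76, belonged to a neighbour: that summit lay in an intron of foi, a zinc transporter gene, and ranked 103, 49, 89 and 129.

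Among the Theta genes, GstT1 had a summit 65 bp downstream of its TSS with IDR rank 2659 and ranks of 2664, 3098, 2738 and 2513, which were close together. GstT2 lies just downstream of GstT1 and had no summit nearest to its own TSS, the closest lying 1239 bp away. The windows of GstT1 and GstT2 held 8 and 7 summits, but 7 of the 8 were nearest to CG30340, CG30339, CG1902 or CG12926. GstT4 had a summit 2713 bp downstream in an intron with IDR rank 5135 and ranks of 4911, 2904, 7850 and 7539. The summit counted within 1000 bp of the GstT4 TSS, with IDR rank 80 and ranks of 48, 96, 97 and 190, lay 951 bp from it but 935 bp from CG12725, which was nearer. GstT3 was reached by weak replicate peaks only, ranked 7864, 11358, 12358 and 7307 within 1000 bp of its TSS.

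Among the Zeta genes, GstZ2 had both summits of the class. The one 737 bp upstream of the nearest TSS had IDR rank 3237 and ranks of 4395, 2900, 4663 and 1621, and the one 149 bp upstream of another GstZ2 start site had IDR rank 6499 and ranks of 6833, 7035, 6676 and 8145. Both lay in introns of longer GstZ2 transcripts. The neighbouring GstZ1 had no IDR summit within 1000 bp, the nearest lying 2449 bp away.

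The position of the summits differed between the Delta and Epsilon clusters and the other genes. In the Delta and Epsilon clusters 14 of 16 summits lay upstream of the nearest TSS. Of the same 16, 12 were intergenic, 3 lay in untranslated exons and 1 in an intron. Of the 15 other summits nearest to a Gst TSS, 4 lay upstream, 9 lay in introns, 6 in untranslated exons and 0 between genes. These 15 include the 2 summits in the span of the Omega genes, also a tandem cluster, of which 0 were intergenic and 0 lay upstream. For comparison, 63.7% of the 4342 IDR summits within 1000 bp of any TSS lay upstream of it. The gene structure moved with this: 15 Gst genes have a single exon, 7 in the Delta cluster and 8 in the Epsilon cluster, and none of the 14 genes outside these clusters does. The part of gene structure in the positions was not tested.

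**Figure D4:**
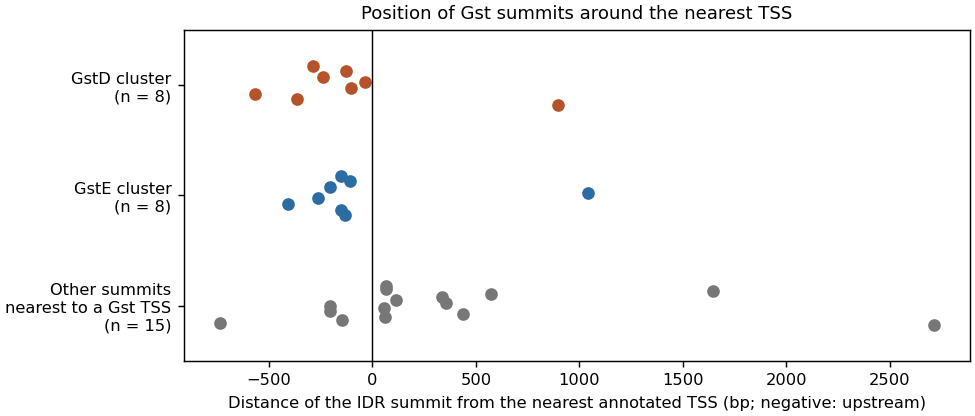
Distance in bp from each IDR summit to the nearest annotated TSS (negative values upstream), with 1 point per summit, for the 8 Delta cluster summits, the 8 Epsilon cluster summits and the 15 other summits nearest to a Gst TSS. In each cluster 7 of 8 points lie left of 0, while 4 of 15 points of the other summits do.

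Sequence around the 49 summits was searched within 100 bp on both strands for 4 named words. CTTATC, the reverse complement of GATAAG and picked because it led an earlier scan of the same lists, was found at 46.9% of Gst-window summits (Wilson 95% interval 33.7 to 60.6%, n = 49) and at 35.4% of all IDR summits. For TAATTA the shares were 28.6% (17.8 to 42.4%) at Gst-window summits and 19.7% at all IDR summits. The shorter GATAA, which CTTATC contains on its other strand, was found at 73.5% and 65.5%. The interval for GATAA was 59.7 to 83.8%, and its share at Gst-window summits was 70.0%, 76.6%, 70.8% and 59.5% in replicates 1 to 4. At the 31 summits nearest to a Gst TSS the share was 41.9% for CTTATC (26.4 to 59.2%) and 32.3% for TAATTA (18.6 to 49.9%). For GATAA it was 67.7% (50.1 to 81.4%). The intervals describe counting error only and are no test, since the family was chosen with these summits and the windows of some neighbouring summits overlap.

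By class the counts were small, and differences between classes were not tested. CTTATC was found at 4 of 8 summits in class D windows, 5 of 15 in class E, 2 of 5 in class O, 6 of 9 in class S, 5 of 10 in class T and 1 of 2 in class Z. TAATTA was found at 2, 7, 2, 0, 3 and 0 of the same summits in that order of classes. Of the 9 class S summits, 5 were nearest to Sply or CG46491. Over the replicate lists, the share of Gst-window summits with CTTATC was 46.0%, 44.7%, 41.7% and 35.7% in replicates 1 to 4, and for TAATTA it was 20.0%, 29.8%, 22.9% and 23.8%.

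The word TGACNNNGC, the core of the antioxidant response element through which the Nrf2 homologue cnc is known to switch on detoxification genes, was found at 5 of the 49 Gst-window summits, 10.2% (4.44 to 21.8%), and at 4.8% of all IDR summits. In the promoter windows, from 250 bp before to 50 bp after the TSS, it was found at 1 of 35 Gst genes, GstE3, and at 8.64% of all genes. The other words were found at 7 of 35 Gst promoters for CTTATC against 19.0% of all promoters, 9 of 35 for TAATTA against 20.5%, and 20 of 35 for GATAA against 55.2%. A window without a word says only that these letters are not in it.

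Beside the transferases, 20 genes of glutathione and redox biology were looked up, of which 19 were matched by symbol. An IDR summit lay in the window of 14 of the 19 and within 1000 bp of a TSS of 12, and over all genes the shares were 55.4% and 28.2%. The best ranks below are those of the whole window unless a TSS is named. Among the genes for glutathione synthesis, Gclc, the catalytic subunit of the rate-limiting ligase, had 11 summits with a best rank of 669. Its modifier subunit gene Gclm had 4 with a best rank of 815, or 4569 within 1000 bp of a TSS, while Gss1 and Gss2, the glutathione synthase genes, had none. The regulators divided likewise: cnc had 19 summits with a best rank of 86, or 203 within 1000 bp of a TSS, and Keap1, its inhibitor, had 5 with a best rank of 3754. Its partner gene maf-S had none.

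Among the redox enzymes, the catalase gene Cat had 7 summits and the superoxide dismutase gene Sod1 had 4, with best ranks of 390 and 1059. Within 1000 bp of a TSS the best rank was 5383 for Cat and the same 1059 for Sod1. Trxr1, Trx2, Sod2 and Grx1 had best ranks of 2873, 385, 4504 and 3388, of which that of Trx2 was 4726 within 1000 bp of a TSS, and Trxr2 had no summit. Other relatives were mixed: the best rank was 1642 at Mgstl, the microsomal transferase gene, and 1573 at eEF1gamma, while gfzf had no summit. The se and Ggt-1 windows held summits of rank 76 and 529, but none within 1000 bp of a TSS.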

How the data were processed

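Peak lists of 4 anti-GFP ChIP-seq libraries, 1 group by the source name and numbered by the labels, were analysed. They were deposited in narrowPeak format on dm6. The signal value is the authors' score per peak, used only to rank peaks within a list. The q-values deposited as −log10 values were used for a threshold of 0.01. Per the deposited file lists, the IDR list came from the pooled list and the lists of the 4 replicates. Per the labels, fragments were 200 to 800 bp after sonication. For the aligner, its treatment of reads that match several places, the peak caller and the IDR threshold, the name or value is not given in the sources used here. PCR duplicates and read depth could not be seen in peak lists. The labels' numeric age field is not interpretable and was not used; the stage comes from the source name.

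Summits were assigned to genes and start sites of Ensembl release 115 on the main arms. Each replicate list was also used as its 7909 highest peaks, the length of the IDR list, and peaks overlapped by at least 1 bp. A replicate rank is that of the best overlapping peak, so summits within 1 peak share it. Tandem clusters are runs of 3 or more Gst genes with gaps under 20000 bp. Sequences came from the RefSeq genome of the same assembly. The scripts ran on Python 3.11.15 with pandas 2.3.3, numpy 2.4.6, matplotlib 3.10.9 and scipy 1.17.1, and the counting steps were tested on simulated data.

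No test was made: there is 1 group, and the rule that chose the family used these summits. Members, gene lists, CTTATC and the other words were chosen with earlier results of these data known. Every Gst gene is named; ranks in all replicates are given for each summit nearest to a Gst TSS and for the strongest summit of each class and cluster, and other genes are named only where they own a summit in a Gst window or belong to the glutathione list. Alternatives were a stricter and a looser peak list, 1 summit per region, other windows, nearest TSS only, other promoter distances, a 50 bp motif window and leaving out each replicate.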

Additional observations from a re-analysis of the deposited data

Results flagged for a closer look

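Of 35 measures compared over the 4 replicates, 8 had 1 replicate far from the other 3, and in all 8 it was replicate 4. Chance marks about 1 in 20 such groups, and the measures share peaks. The number of Gst genes with a window summit among the highest peaks was 35 in replicate 4 and 34 in each of the others, a gap of 1 gene. The gene lacking in replicates 2 and 3 was GstT3, ranked 11358 and 12358 there and 7307 in replicate 4. Only 6947 peaks of replicate 4 had a q-value under 0.01, fewer than that rank. The 34 genes of replicate 1 were another set, with GstT3 at rank 7864 and without GstE13. The median rank of the Epsilon cluster summits was 11796 in replicate 4, against 3854, 3204 and 3128 in replicates 1 to 3. Single summits with a replicate 4 rank far from the rest were those nearest to GstE10 (6459), GstE1 (19250), GstE6 (14709), GstE9 (8884), GstD2 (22480) and GstD8 (23982, the summit with IDR rank 4367). All 6 lie in the Delta and Epsilon clusters. What sets replicate 4 apart was not tested.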

How the results depend on the processing

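The number of Gst genes with a window summit, 34, stayed within 1.5 times under 10 of 12 alternatives. The exceptions were 11 with gene bodies only, against 18.1% of all genes, and 22 with the nearest TSS only, against 27.7%. The count near a TSS, 24, stayed within 1.5 times under 5 of 9. It was 15 with the 3954 strongest IDR peaks, against 15.8% of all genes. With 1 replicate left out, it was counted from peaks shared by the remaining lists. It was then 15 without replicate 1, 15 without replicate 2, 14 without replicate 3 and 21 without replicate 4. The shares of all genes were 19.8%, 19.7%, 18.9% and 20.2% in that order. The 49 distinct summits stayed within 1.5 times under 8 of 11, with 29 among the 3954 strongest, 17 in gene bodies and 32 in bodies with 1000 bp. The CTTATC share, 46.9%, moved by less than the spread between replicates under 3 of 8: it was 55.2% among the 3954 strongest, 35.8% in pooled peaks with q under 0.01, 36.7% with 50 bp windows and 50 to 52.9% with 1 replicate left out. The TAATTA share, 28.6%, did so under 7 of 8 and was 16.3% with 50 bp windows. The word shares over all summits under these settings are not given here. Wherever a count is lower, fewer peaks, narrower windows or 1 gene per summit enter by construction. No paired analysis was possible because there is 1 group. Peak lists hold no read depth, so the precision of a single rank is unknown.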
